A study of Mus musculus with 8 samples.

Results

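The nuclear genes for subunits of the mitochondrial respiratory chain and of the ATP synthase were followed across 4 groups of mouse bone marrow-derived macrophages. Members were chosen by symbol: names that begin with Ndufa, Ndufb, Ndufc, Ndufs, Ndufv, Uqcr, Atp5, Cox4, Cox5, Cox6, Cox7 or Cox8, and Sdha to Sdhd, without the Ndufaf assembly factors. Of 84 such names among 24940 genes in the table, 79 reached 1 RPKM (reads normalised to exon length and to the depth of the library) in at least 2 libraries. They were 37 genes named for complex I, 4 for complex II, 8 for complex III, 14 for complex IV and 16 for the ATP synthase. The other 5, Cox4i2, Cox7b2, Cox8b, Cox8c and Ndufa4l2, stayed under that minimum. Just inside it were Atp5s (0.595 to 1.15 RPKM over the libraries), Cox6a2 (0.654 to 1.32) and Cox6b2 (0.134 to 2.88), and just outside it was Cox4i2 (0 to 0.525). The prefixes also take in genes that are not structural subunits of the complex they are counted with, such as Atp5s and Cox7a2l. Ndufa4, counted with complex I by its name, is now placed in complex IV.

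All macrophages came from C57BL/6 mice 6 to 8 weeks old and were grown in M-CSF, the growth factor of this lineage, at 5 ng/ml for 16 h and then, for the cells that had not attached, at 30 ng/ml for 3 days. M-CSF at 30 ng/ml is also given for the culture of the 24 h that followed. Each culture had received 1 of 2 short hairpin RNAs, named NCsh and TMBIM6sh. Each was sequenced without RANKL or after 24 h of RANKL, the cytokine that drives osteoclast formation, at 100 ng/ml, with 2 libraries in each of the 4 groups. Only 1 hairpin is named on each side, and the promoter and vector are not given in the labels, so the loss of Tmbim6 and other hairpin effects cannot be told apart. NCsh is not spelled out, and nothing says that the 2 libraries of a group came from separate mice or cultures, so the p-values measure only the spread between libraries, which may be technical.

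In the respiratory chain, complexes I and II take electrons from NADH and succinate, complex III passes them on through cytochrome c, and complex IV hands them to oxygen. Complexes I, III and IV pump protons across the inner mitochondrial membrane, and the ATP synthase makes ATP from the return flow. Osteoclasts are rich in mitochondria, and their formation is known to be accompanied by mitochondrial biogenesis. A few core subunits are encoded in mitochondrial DNA and carry other names, so they are not among these genes.

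Short sequence words known as binding motifs of factors that act on such genes were searched in the promoters of these genes, because members that move together might share one. RefSeq promoters (GRCm38.p6, 250 bases before to 50 bases after the start) were at hand for 67 of the 79 genes and for 27025 genes in all, and both strands were searched. The NRF1 word GCATGCGC was found in 10 of the 67 (14.9%) against 3.05% of all promoters. The YY1 word AAGATGGC was also found in 10 (14.9%) against 3.19%, the ETS word CCGGAAGT in 5 (7.46%) against 4.31%, and the ERR word TCAAGGTCA in 2 (2.99%) against 0.466%. The NRF1 word can overlap its own reverse complement at 1 site, and such a site was counted once per gene. Of the 16 genes with a promoter that differed between the hairpins below, Ndufb8 and Ndufs4 held the YY1 word and Sdhd the ERR word. These 3 windows are shown with 2 genes that hold the same words and did not pass the test, Ndufs7 and Atp5g3, and with Sdhb as an example of the NRF1 word. Each line gives 30 bases of the gene's own strand, with the word in capitals (or its reverse complement, in Sdhd and Atp5g3).
Ndufb8, YY1, chr19:44555393-44555422, minus strand: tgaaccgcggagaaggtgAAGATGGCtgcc
Ndufs4, YY1, chr13:114388045-114388074, minus strand: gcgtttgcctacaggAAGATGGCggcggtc
Ndufs7, YY1, chr10:80249462-80249491, plus strand: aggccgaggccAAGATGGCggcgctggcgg
Sdhd, ERR, chr9:50603800-50603829, minus strand: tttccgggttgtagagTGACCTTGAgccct
Atp5g3, ERR, chr2:73911359-73911388, minus strand: tgttacaaagTGACCTTGAgcgtcttcccc
Sdhb, NRF1, chr4:140961206-140961235, plus strand: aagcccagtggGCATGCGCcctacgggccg
A match describes the letters only and is not a bound site. The words in Ndufb8, Ndufs4 and Ndufs7 began 39, 36 and 25 bases after the transcription start. The YY1 word holds the letters ATG of a start codon, and whether these sites are translation starts was not tested.

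By depths inferred from the RPKM values, the libraries held 25475000 to 28595000 tags, with 83.5% to 86.4% in exons. The members took 0.549% to 0.641% of the exon tags. Tmbim6 itself stood at 308.855 to 333.72 RPKM in the 4 NCsh libraries and at 10.02 to 11.708 in the 4 TMBIM6sh libraries, as their labels say. All 10 macrophage markers listed were expressed (summed level 7833 to 11223 RPKM), with 1 marker alone at up to 8071 RPKM. By the test described below, 6 of the 10 were called lower and 0 higher after RANKL with each hairpin. Of all genes 3.98% (NCsh) and 6.89% (TMBIM6sh) were called lower. Between the hairpins 1 was lower without RANKL and 3 with RANKL, and 0 higher, against 13.8% and 19.7% of all genes lower. Only 4 of 9 osteoclast markers reached 1 RPKM in at least 2 libraries (summed level 85.1 to 146). The summed markers of dendritic cells did not pass 1.14 RPKM, and Cd209a, the lymphocyte marker Nkg7 and the globin genes Hba-a1, Hbb-bs and Hbb-bt were at 0 throughout. Neutrophil markers summed to 22.5 to 28.1 RPKM in the NCsh and 11.5 to 15.5 RPKM in the TMBIM6sh libraries, with Ly6g at 0 in all. That sum was nearly all 1 gene, the only 1 of the 7 that reached the minimum, S100a8 (log2 difference -0.86 and -0.85), and its part in the hairpin differences of the members was not tested.

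The second NCsh library without RANKL stood apart for these genes. In that group 76 of 79 members were higher in library 2 than in library 1, with a median gap of 0.30 on the log2 scale, against gaps of 0.05, -0.02 and 0.10 in the other groups. This library had the highest of the 8 values for 49 members, and library 1 of the same group had the lowest for 33. The gap moved with transcript length: it was 0.32 for the 56 members under 1000 bases and 0.15 for the 23 longer ones, and other genes under 1000 bases had 0.23. Other genes of 1000 bases or more had -0.000269, with 4886 of 9787 higher, whereas all 23 members of that length were higher. All 79 cytosolic ribosomal protein genes tested were higher in it as well, by a median of 0.32. The part of length in the results was not tested, and the members are short, with a median of 664 bases against 2651 for all genes tested. For the main results of comparisons that use these 2 libraries, counts and calls lost or gained by leaving 1 of them out are given. The other comparisons use them only for the spread that all groups share. Their highest counts also came from leaving 1 of these 2 libraries out.

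**Figure D1:**
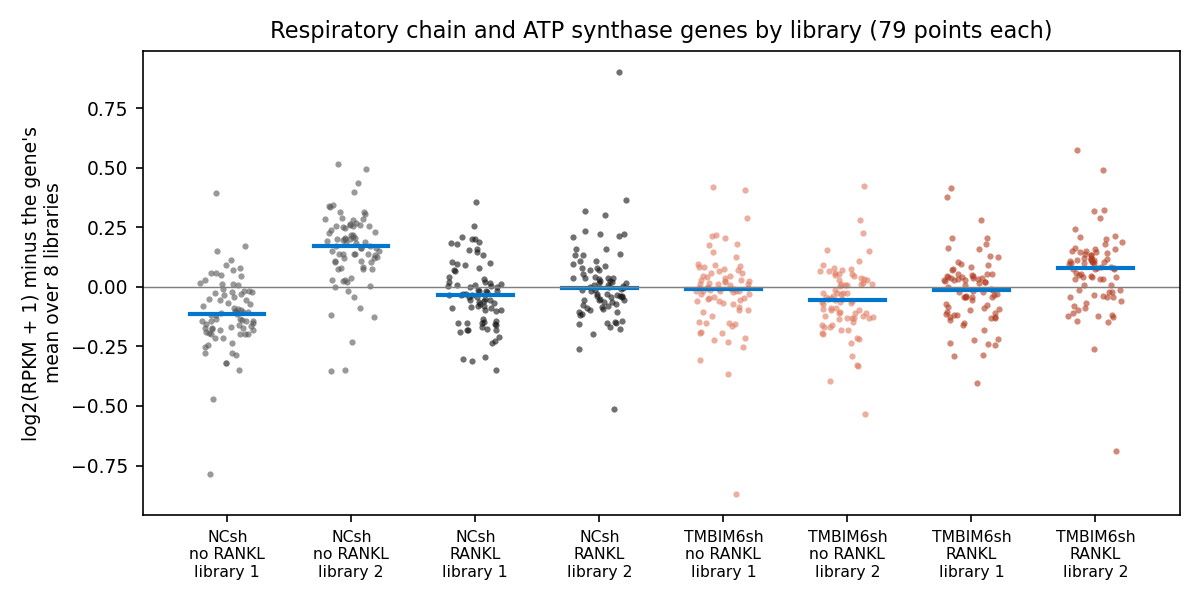
Each point is 1 of the 79 genes in 1 library, as log2(RPKM + 1) minus the gene's own mean over the 8 libraries (vertical axis); blue lines are medians. The medians are -0.11 and 0.17 in the 2 NCsh libraries without RANKL and between -0.06 and 0.08 in the other 6.

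As a level per length, the members ranged widely. Cox4i1, the general form of a regulatory complex IV subunit, was the most abundant, with a mean of 329 RPKM (295 to 398 over the libraries), followed by Cox6b1 at 234 (211 to 279), and the ranges of these neighbours did not overlap. Atp5b, the catalytic beta subunit of the ATP synthase, came next at 210 (146 to 285), and its range overlapped that of Atp5l at 207 (169 to 248). The median member stood at 129 RPKM in the ATP synthase, 110 in complex IV, 71.6 in complex III, 69.4 in complex II and 42.0 in complex I. Within complex I the mean levels ran from 10.9 for Ndufa11 to 119 for Ndufa3, within complex II from 44.8 for Sdhd to 87.3 for Sdhb, and within complex III from 38.2 for Uqcrfs1 to 90.3 for Uqcr10. The value of Ndufa11 rests on a deposited length of 2655 bases. The annotation read for exon overlaps holds 1092 exon bases for it, so its place as the lowest is uncertain.

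Where a subunit has forms from several genes, the broadly expressed form prevailed. Cox6a1 stood at 170 to 218 RPKM and its muscle form Cox6a2 at 0.654 to 1.32. Cox6b1 was likewise far above the testis form Cox6b2, and Cox7a2 (65.2 to 93.9) was above the muscle form Cox7a1 (1.17 to 3.16). Cox8a stood at 151 to 195, whereas Cox8b did not pass 0.109 and Cox8c was at 0 in every library. The 3 genes for the same ring subunit of the ATP synthase were all present, Atp5g2 (139 to 180) and Atp5g3 (134 to 158) above Atp5g1 (46.8 to 72.1).

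RANKL for 24 h left nearly all of these genes without a called difference. Differences were tested with limma on log2(RPKM + 1) over 11040 genes, and a gene is called at a Benjamini-Hochberg adjusted p under 0.05. In NCsh cells 0 of 79 members were called, where 11.0% of all genes tested were called higher and 3.98% lower. At an unadjusted p under 0.05 limma gave 3 members, against 3331 of all 11040 genes. Voom on the tags recovered from the RPKM values called 0 members and 2433 of all genes. The members' median log2 difference was -0.05, against 0.06 for all genes. The count rested on the uneven duplicates: without the second NCsh library without RANKL 4 members were higher and the median was 0.10, and without the first 19 were lower and the median was -0.21.

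The member with the smallest p in each complex shows the size of what was seen in NCsh cells. Ndufs8, an iron-sulfur subunit of complex I, had -0.20 on the log2 scale (SE 0.0812, limma adjusted p = 0.139). Cox5b, a zinc-binding subunit of complex IV, had -0.17 (adjusted p = 0.140), and Sdhb, the iron-sulfur subunit of complex II, had -0.19 (0.259). The core protein gene of complex III, Uqcrc2, had 0.12 (0.197), and Atp5g3 had 0.14 (0.145). None of the 5 passed in this fit. With libraries rescaled by median ratios Ndufs8 (-0.27, adjusted p = 0.0461) and Cox5b (-0.25, 0.0279) passed, and Cox5b also without the first NCsh library without RANKL (-0.27, 0.0167). Without the second library of that group Sdhb had -0.05, Cox5b -0.07 and Ndufs8 -0.11, and without the first Sdhb had -0.34.

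In TMBIM6sh cells 1 member was called after RANKL, Ndufv1, which encodes the NADH-binding flavoprotein of complex I. It stood at 27.3 and 24.7 RPKM without RANKL and at 32.0 and 30.8 with RANKL, so the groups did not overlap. Ndufv1 rose by 0.26 on the log2 scale (SE 0.0667, limma adjusted p = 0.0256), 1.21-fold in mean RPKM. The call was lost without the second TMBIM6sh library without RANKL and without either TMBIM6sh library with RANKL (adjusted p up to 0.217), with no intensity trend, and with libraries centred on the members. The share of all genes called was 8.53% higher and 6.89% lower. No member was called lower, and 6 had an unadjusted p under 0.05, against 3156 of all 11040 genes. Among the members with the smallest p elsewhere, Cox5a had 0.21 (adjusted p = 0.103), Uqcr11 0.17 (0.303), Atp5g3 0.15 (0.123) and Sdhb -0.16 (0.366). The members' median was 0.07, against 0.02 for all genes.

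Whether RANKL acted differently under the 2 hairpins was asked with the interaction. limma called 0 members and 1 of all genes (0.00906%), and voom called 0 members. An unadjusted p under 0.05 was seen in 1 member, against 857 of all 11040 genes. That member was Ndufb10 of complex I (0.23 on the log2 scale, limma adjusted p = 0.634). The smallest p in the other complexes belonged to Atp5o (0.20, adjusted p = 0.743), Uqcrh (0.18, 0.779), Cox5b (0.17, 0.692) and Sdhc (0.07, 0.852). Without the second NCsh library without RANKL the members' median of 0.11 became -0.03, and Ndufb10, Atp5o, Uqcrh, Cox5b and Sdhc had 0.16, 0.02, 0.0061, 0.07 and 0.04.

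**Figure D2:**
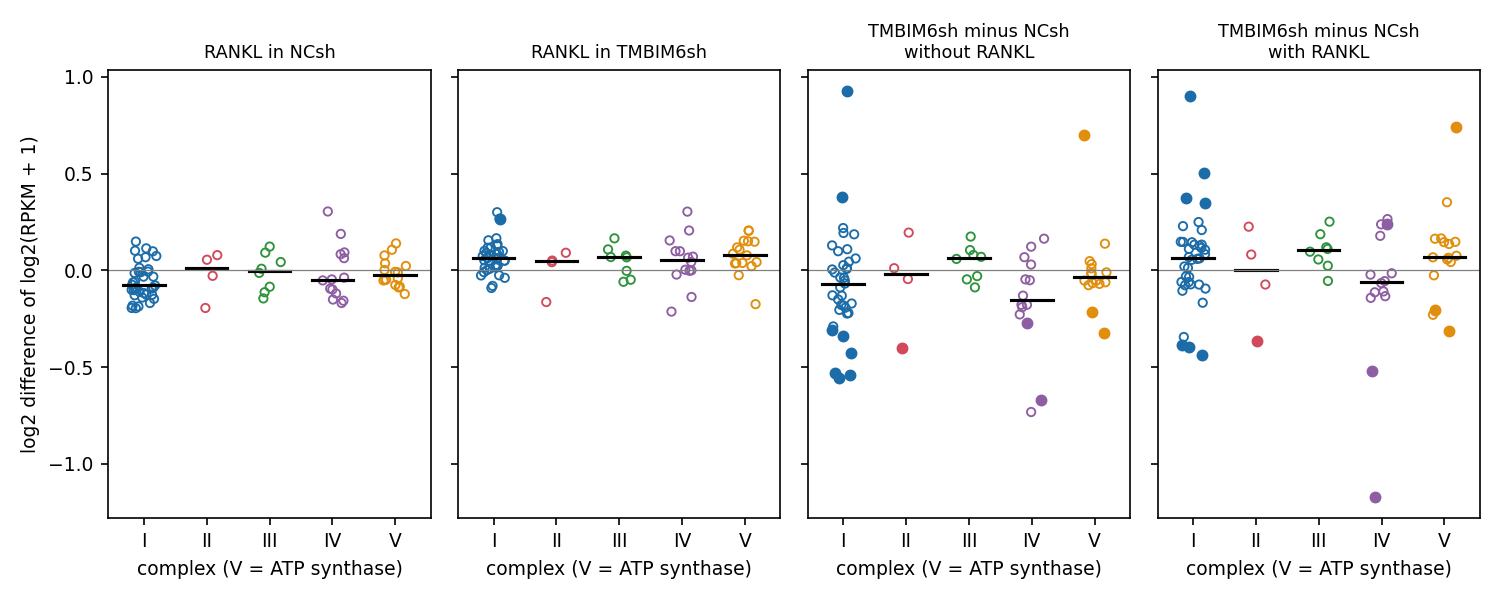
Log2 difference of each member (vertical axis) by complex (horizontal axis) in 4 comparisons; filled points passed an adjusted p of 0.05 and black lines are medians. Filled points number 0 and 1 in the RANKL panels and 14 in each hairpin panel.

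The hairpins differed in a limited set of subunits. Calls went in both directions within complex I and the ATP synthase in both RANKL states, and within complex IV only with RANKL. Without RANKL 3 members were higher and 11 lower in TMBIM6sh than in NCsh cells, where 10.4% of all genes were called higher and 13.8% lower. With RANKL 6 were higher and 8 lower, against 8.93% and 19.7% of all genes. That is 17.7% of the members in either state, against 24.2% and 28.6% of all genes in both directions together. The members' median was -0.05 without RANKL (-0.02 for all genes) and 0.06 with RANKL (-0.07 for all genes). With libraries rescaled by median ratios, the split with RANKL was 13 higher and 5 lower, while that of all genes went from 986 higher and 2171 lower to 1580 and 1680. Without the second NCsh library without RANKL the split in that state was 13 higher and 5 lower (980 and 1126 for all genes, against 1147 and 1526 with all libraries), and without the first 3 higher and 31 lower (997 and 1516 for all genes).

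The 2 hairpin comparisons take their differences from separate libraries, but their calls are not independent. Both compare the same 2 hairpins, and both use the same spread for each gene, estimated from all 8 libraries. A gene with a small spread is therefore more easily called in both states. Called higher in both were Ndufs5, Ndufa10 and Atp5b, and called lower in both were Ndufab1, Ndufb5, Ndufa4, Sdhd, Cox6c, Atp5a1 and Atp5c1. The 3 are all of those called higher without RANKL and 50% of those called higher with RANKL, and the 7 are 63.6% and 87.5% of those called lower. Over all genes the shares were 63.1% and 73.4% of those called higher and 79.8% and 56.1% of those called lower. Of all 79 members, 57 lay on the same side of 0 in both states, 28 above and 29 below. That count was not taken over all genes, so whether it is high or low for these data is not known. Ndufs5, Atp5b, Cox6c and Ndufab1 kept their calls in both states under each of the 8 left-out libraries and each of the 10 other settings run. With no filter on low values, which raises the number of genes tested to 18292, 7 calls were lost without RANKL (Ndufb5, Ndufb8, Ndufs4, Ndufs8, Cox7a2l, Atp5a1 and Atp5c1) and 7 with RANKL (Ndufa4, Ndufb5, Ndufb7, Cox5b, Cox6b2, Atp5a1 and Atp5c1).

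**Figure D3:**
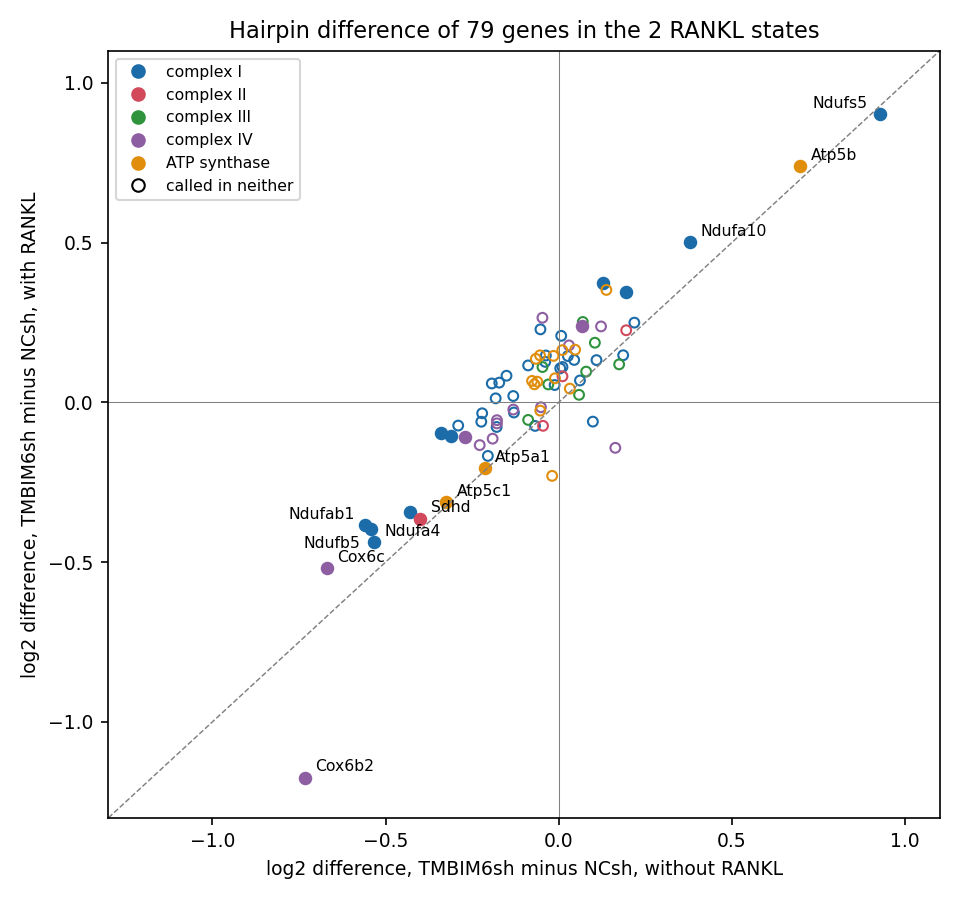
Log2 difference between TMBIM6sh and NCsh cells without RANKL (horizontal axis) and with RANKL (vertical axis) for the 79 genes, coloured by complex; filled points passed an adjusted p of 0.05 in at least 1 state (18 genes) and the dashed line marks equal values. Ndufs5 and Atp5b lie at the upper right and Cox6c at the lower left.

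In complex I, Ndufs5 showed the largest rise of any member in both hairpin comparisons. It encodes an accessory subunit that faces the intermembrane space and lies at chr4:123712710-123718186 (mm10). Its level was 19.2 and 28.6 RPKM in NCsh cells without RANKL, 27.2 and 23.4 in NCsh cells with RANKL, 45.5 and 45.6 in TMBIM6sh cells without RANKL, and 45.4 and 50.8 in TMBIM6sh cells with RANKL. Every TMBIM6sh library lay above every NCsh library. Ndufs5 rose by 0.93 without RANKL (SE 0.150, limma adjusted p = 0.00196) and by 0.90 with RANKL (adjusted p = 0.00196) on the log2 scale, 1.91-fold and 1.90-fold in mean RPKM. The first value was 1.20 without the second and 0.65 without the first NCsh library without RANKL, and passed in both. Set against the median of the other complex I genes of the same library, Ndufs5 stood at 0.453 to 0.626 in NCsh and 1.03 to 1.09 in TMBIM6sh libraries.

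Ndufa10, an accessory subunit of complex I, rose less. It had 33.1 and 36.8 RPKM (NCsh) against 44.1 and 47.3 (TMBIM6sh) without RANKL, and 32.7 and 35.6 against 46.7 and 50.7 with RANKL. The groups did not overlap in either state, and the log2 differences were 0.38 (SE 0.0778, limma adjusted p = 0.00698) and 0.50 (adjusted p = 0.00137). Without the second TMBIM6sh library without RANKL the first of these missed the threshold (adjusted p = 0.0690).

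Ndufab1, the mitochondrial acyl carrier protein that is also a complex I subunit, moved the other way. Its level was 44.8 and 49.3 RPKM in NCsh against 31.8 and 31.3 in TMBIM6sh cells without RANKL, and 47.5 and 45.9 against 35.4 and 35.7 with RANKL. The duplicates lay close together and the hairpins far apart. Ndufab1 fell by 0.56 (SE 0.0630, limma adjusted p = 2.75e-04) and by 0.39 (adjusted p = 0.00180). The table was counted without regard to strand, and 8.48% of its annotated exon bases overlap Gm44986 on the opposite strand.

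Ndufb5 and Ndufa4 fell in both states with less margin. Ndufb5, a membrane-arm subunit, had -0.54 (limma adjusted p = 0.0134) and -0.40 (0.0428), and 12.2% of its exon bases overlap Mrpl47 on the opposite strand. Without the second NCsh library without RANKL it had -0.31 in that state (adjusted p = 0.0327). Leaving out either TMBIM6sh library without RANKL ended its call in that state, and with RANKL 6 of the 8 left-out libraries did, all but the 2 NCsh libraries without RANKL. Ndufa4 had -0.53 (adjusted p = 0.00602) and -0.44 (0.0133), and its call was lost without the second TMBIM6sh library without RANKL in the first state, and without the second NCsh library or the first TMBIM6sh library with RANKL in the second state. In both genes each TMBIM6sh library lay below each NCsh library of the same RANKL state.

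Called in 1 state only were Ndufb8, Ndufs4 and Ndufs8 (lower without RANKL) and Ndufb2 and Ndufb7 (higher with RANKL). Ndufs4 and Ndufs8, like Cox7a2l, Atp5a1 and Atp5c1, fall outside the 6 largest changes per direction and were named after their values were seen. Without RANKL Ndufb8 had -0.43 (limma adjusted p = 0.0258), Ndufs4 -0.34 (0.0245) and Ndufs8 -0.31 (0.0216). All 3 calls were lost without the second NCsh library without RANKL (adjusted p of 0.0788, 0.117 and 0.104), and also without either TMBIM6sh library of that state. Ndufb8 shares 19.7% of its exon bases with Gm20538 on the same strand. With RANKL Ndufb8 had -0.34 (adjusted p = 0.0531), and no member showed an interaction that passed. Ndufb2 had 0.37 (0.0111) with RANKL and 0.13 (0.327) without, and Ndufb7 had 0.35 (0.0331) and 0.19 (0.214). When the second NCsh library without RANKL was left out, both were also called higher without RANKL, Ndufb2 at 0.27 (0.0352) and Ndufb7 at 0.35 (0.0219). Ndufb2 lost its call without the first library of either group with RANKL, and Ndufb7 without any of the 4 libraries with RANKL.

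In complex II, Sdhd fell while its partners were not called. Sdhd, a membrane anchor whose promoter window is printed above, stood at 46.7 and 53.1 RPKM in NCsh against 37.0 and 37.9 in TMBIM6sh cells without RANKL, and at 51.1 and 52.4 against 39.0 and 41.0 with RANKL. The groups did not overlap. The differences were -0.40 (SE 0.0703, limma adjusted p = 0.00308) and -0.36 (adjusted p = 0.00438). The first was no longer called when libraries were centred on the members' median level (adjusted p = 0.0871). The ratio of Sdhd to Sdha, the catalytic subunit, was 0.770 to 0.828 in NCsh and 0.616 to 0.640 in TMBIM6sh libraries.

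Complex III had no called member in either state, with limma medians over its 8 genes of 0.06 and 0.10. The smallest p belonged to Uqcrc2 without RANKL (0.17, adjusted p = 0.0586, and 0.22, 0.0355 without the second NCsh library of that state) and to the other core protein gene, Uqcrc1, with RANKL (0.19, adjusted p = 0.0799). At an unadjusted p under 0.05 there were 1 and 2 of its 8 members, against 4016 and 4492 of all 11040 genes.

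In complex IV, Cox6c fell the most among the well expressed genes. It encodes a small membrane subunit and lies at chr15:35931976-35938246 (mm10). Without RANKL it stood at 127 and 161 RPKM in NCsh against 88.3 and 90.4 in TMBIM6sh cells, and with RANKL at 129 and 147 against 96.5 and 95.0. All TMBIM6sh libraries were below all NCsh libraries. Cox6c fell by 0.67 (SE 0.104, limma adjusted p = 0.00153) and by 0.52 (adjusted p = 0.00506). Against the median of the other complex IV genes it stood at 1.24 to 1.34 in NCsh and 0.866 to 0.933 in TMBIM6sh libraries.

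The other complex IV calls were held by 1 state each. Cox5b was higher with RANKL, at 147 and 148 RPKM in TMBIM6sh against 123 and 127 in NCsh cells (0.24, limma adjusted p = 0.0301), and lost the call when any library but an NCsh library without RANKL was left out. Cox7a2l was lower without RANKL (-0.27, limma adjusted p = 0.0332). That call was lost without the second NCsh library of that state or either TMBIM6sh one. Cox6b2 was lower with RANKL (-1.17, adjusted p = 0.0130), but its levels of 1.65 and 2.88 against 0.569 and 0.286 RPKM rest on few tags (2 to 45 in each of the 8 libraries), and the second library of either group was needed for the call. Cox6b2 reached 1 RPKM in all 4 NCsh libraries and in 1 TMBIM6sh library (1.15), so it passed the minimum through the NCsh group and its count among the lower genes supports nothing.

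In the ATP synthase, the 2 main subunits of the catalytic head moved apart. Atp5b, the catalytic beta subunit (chr10:128083307-128090388, mm10), stood at 146 and 159 RPKM in NCsh against 248 and 246 in TMBIM6sh cells without RANKL, and at 159 and 169 against 264 and 285 with RANKL. Atp5a1, the alpha subunit, stood at 170 and 180 against 151 and 151, and at 185 and 184 against 152 and 168. In both genes and both states the hairpin groups did not overlap, in opposite directions.

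Atp5b rose by 0.70 (SE 0.0691, limma adjusted p = 1.36e-04) and by 0.74 (adjusted p = 8.2e-05), 1.62-fold and 1.67-fold in mean RPKM. Atp5a1 fell by 0.21 in each state (adjusted p = 0.0393 and 0.0406), a call lost under 5 of the 8 left-out libraries in each state. Without the second NCsh library without RANKL the adjusted p in that state was 0.110. The ratio of Atp5b to Atp5a1 was 0.857, 0.883, 0.858 and 0.918 in the NCsh libraries and 1.65, 1.63, 1.73 and 1.70 in the TMBIM6sh libraries. Atp5c1, the gamma subunit of the rotor, fell by 0.32 (adjusted p = 0.0446) and by 0.31 (0.0459), and lost its call under 7 and 6 left-out libraries.

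**Figure D4:**
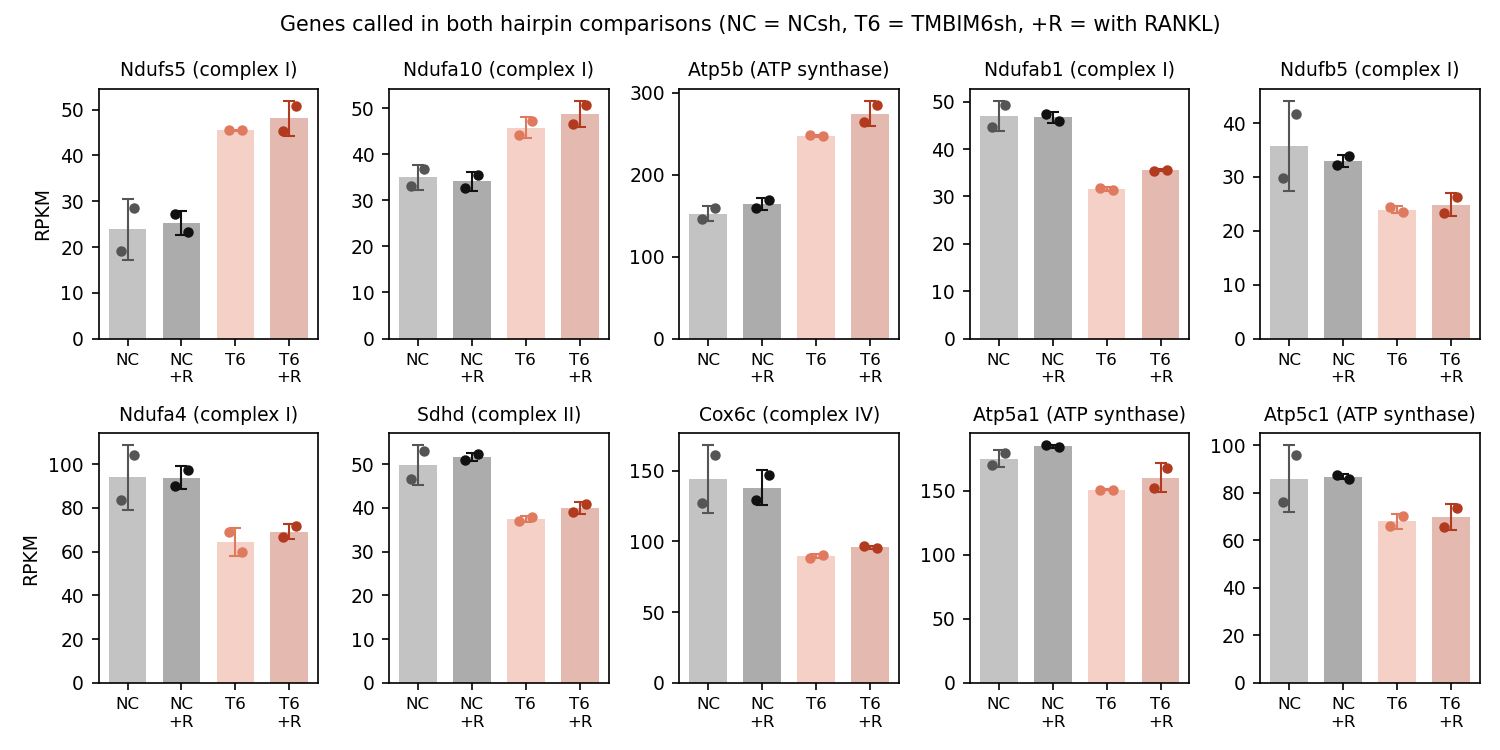
RPKM (vertical axis, from 0) of the 10 genes called in both hairpin comparisons; bars are group means, points the 2 libraries and whiskers the SD (n = 2). Ndufs5, Ndufa10 and Atp5b are higher in the TMBIM6sh libraries and the other 7 lower.

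Genes that work with these subunits were read from lists of partners, assembly factors and regulators. Of all genes, 10.4% were called higher and 13.8% lower without RANKL, and 8.93% and 19.7% with RANKL. Of 26 partner genes tested, such as carriers and coenzyme Q enzymes, 0 were higher and 3 lower without RANKL, and 0 and 4 with RANKL. That is 11.5% and 15.4% called, against 24.2% and 28.6% of all genes in both directions together. Cytochrome c (Cycs) was not called in either state (0.15, limma adjusted p = 0.115, and -0.02, adjusted p = 0.873). Of 54 assembly factors, 0 were higher and 6 lower without RANKL (11.1% called), and 4 and 5 with RANKL (16.7%). Both shares lie under those of all genes. Atpaf1, a chaperone that binds the beta subunit Atp5b, fell by 0.48 (adjusted p = 0.00386) and by 0.58 (0.00117), from 7.11 to 4.83 RPKM and from 7.07 to 4.41 RPKM. Sdhaf2, which assists flavin attachment to Sdha, fell by 0.45 (0.00348) and by 0.39 (0.00589).

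Of 18 regulators tested, 3 were higher and 2 lower without RANKL, and 1 and 2 with RANKL. That is 27.8% and 16.7% called, against 24.2% and 28.6% of all genes. Esrra, the estrogen-related receptor alpha that acts on many respiratory genes, rose by 1.03 (SE 0.0642, limma adjusted p = 1.66e-05) and by 0.96 (adjusted p = 1.65e-05), from means of 12.6 and 13.1 RPKM to 26.7 and 26.3. Nrf1 was lower without RANKL (-0.27, adjusted p = 0.0494) and Gabpa with RANKL (-0.33, adjusted p = 0.0464). Yy1 was not called, with 0.05 and -0.02.

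Other lists were read beside the 24.2% and 28.6% of all genes called between the hairpins. Of 79 cytosolic ribosomal protein genes 0 were higher and 2 lower without RANKL, and 1 and 1 with RANKL (2.53% called in each). The gap between the 2 NCsh libraries without RANKL, a median of 0.32 for these genes, is part of the spread used in both states. Its part in the low count was not tested, and counts with a library left out are not given for any of the lists. Of 18 subunits of the V-ATPase, the proton pump of lysosomes, 0 were higher and 6 lower without RANKL (33.3%), and 0 and 7 with RANKL (38.9%). Of 78 mitochondrial ribosomal protein genes 5 were higher and 5 lower without RANKL, and 6 and 5 with RANKL. In the citrate cycle 3 of 17 were higher and 1 lower without RANKL, and 2 and 1 with RANKL. There Dlst, a subunit of the 2-oxoglutarate dehydrogenase, fell by 0.47 (limma adjusted p = 0.00155) and by 0.62 (2.84e-04).

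The genes outside the list whose level over the 8 libraries was most like the members' mean standardised profile were Rpl36a (Pearson r 0.991), Rpl24 (0.982), Rps12 (0.981), Rps10 (0.975) and Rps21 (0.975), among 5183 genes compared. All 5 are cytosolic ribosomal protein genes. The profile itself was highest in the second NCsh library without RANKL (1.15) and lowest in the first (-0.81), so the likeness is mostly that of 2 libraries of 1 group.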

How the data were processed

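RNA-seq of 8 libraries, 2 in each of 4 groups taken from the sample titles, was used. The table the authors deposited holds RPKM values made with HOMER's analyzeRepeats on mm10 with RefSeq genes, exons counted on both strands and isoforms condensed to 1 entry per gene, per the file headers. The column heads say FPKM and the command says RPKM. HISAT2 and DESeq2 are named without versions in the submitters' processing notes. The deposited gene lengths and copy numbers were used as given.

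Genes with at least 1 RPKM in at least 2 libraries (11040) were tested as log2(RPKM + 1) with limma 3.58.1 (R 4.3.3), with 1 mean per group, an intensity trend, 4 residual and 5.54 prior degrees of freedom, and Benjamini-Hochberg adjustment over all genes tested. Log2 differences are on that scale and understate changes of low genes. Fold ratios were computed from mean RPKM. The fit was tested on simulated data in which tags were drawn independently for each gene and library. These data lacked the uneven NCsh duplicates, so that test cannot speak for the calls of the members. A two-sided permutation test of duplicates cannot go below p = 0.333 and was not run. Library depth was inferred by a search in steps of 5000 tags for the total that turns RPKM values into whole tags. Values under 3 RPKM of single-copy genes under 3000 bases were used (100% of those checked were whole within 0.1 tags).

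Members and lists were chosen with earlier results of these data known. Named genes are up to 6 called per direction and comparison, the smallest p in each complex, the highest and lowest member of each complex, subunits with several gene forms, the 5 genes most alike, and Tmbim6. Alternatives were another pseudocount (0.1), no filter, a filter at 5 RPKM, median-ratio scaling, a replicate block, a fit of 4 libraries, no trend and each library left out. Added after seeing the data were voom on recovered tags and a centring of the libraries on the members, in 2 versions, the second made after the first had given its results. Some of the cell type markers listed are not reported here.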

Additional observations from a re-analysis of the deposited data

How the results depend on the processing

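Counts are members called, higher and lower together, and medians are on the log2 scale. RANKL in NCsh cells gave 0, and 2 after median-ratio scaling. RANKL in TMBIM6sh cells gave 1, against 2 with the replicate block, 4 in a fit of 4 libraries, 2 with voom, and 0 with no trend or with centring on the members' median deviation. The hairpins without RANKL gave 14, against 7 with no filter and 9 with that centring (3 higher, 6 lower), while the first centring, on the members' median level, gave 10 higher and 5 lower. Voom gave 18, the filter at 5 RPKM and median-ratio scaling 16 each, and a fit of 4 libraries and no trend 10 each. The hairpins with RANKL gave 14 (6 higher, 8 lower), against 7 with no filter and 9 with no trend. Other settings gave more: 20 in a fit of 4 libraries (12 higher, 8 lower) and 20 with voom (11 higher, 9 lower). Median-ratio scaling gave 18 (13 higher, 5 lower). The 2 centrings disagree, and both are given: under the median level the members' median moved to -0.10 for RANKL in TMBIM6sh, 0.11 for the hairpins without RANKL and -0.13 for the interaction, and under the median deviation the interaction median was -0.0017. Under the median level the sign turned for Atp5g3 after RANKL in TMBIM6sh (-0.0122) and, in the interaction, for Ndufb10 (-0.0046), Sdhc (-0.17), Uqcrh (-0.0560), Cox5b (-0.0662) and Atp5o (-0.0359), and under the median deviation for Sdhc (-0.0436). None of these was called in the reported fit. Of 678 values of named members over all settings 604 kept direction and side of the threshold, 53 lost a call, 14 gained one and these 7 turned. Over the left-out libraries the counts ran from 0 to 19 and the medians from -0.21 to 0.10 for RANKL in NCsh, the counts from 0 to 4 for RANKL in TMBIM6sh, from 6 to 34 with medians from -0.20 to 0.0910 for the hairpins without RANKL, from 7 to 21 for the hairpins with RANKL, and the medians from -0.0264 to 0.25 for the interaction. Both ends of the 3 median ranges come from leaving out 1 of the 2 uneven NCsh libraries without RANKL. So does the highest count of every count range given here. RANKL in TMBIM6sh and the hairpins with RANKL use these libraries only for the spread that all groups share. Where 1 library was left, limma assumes that it varies like the other groups.

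No strong shared effect of equal replicate numbers was seen: deviations of equal numbers correlated between -0.0651 and 0.0625 across groups. With so few libraries per group, these correlations cannot show whether equal numbers shared a mouse or culture. With the replicate block 18 members were called for the hairpins with RANKL against 14, and the counts for the hairpins without RANKL (14), RANKL in NCsh (0) and the interaction (0) were those of the fit without it.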
